A study of Mus musculus with 4 samples.

Results

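Schwann cells are the glia of peripheral nerves, and in the pancreas they follow the nerve fibres and form a thin sheath around each islet, the hormone-secreting cell cluster. They arise from the neural crest, not from the pancreatic epithelium, and are recognised by a shared set of genes for a transcription factor, myelin, filament, receptor and adhesion proteins. The transcripts described here are 8 such markers: Sox10, Mbp, Gfap, S100b, Ngfr, Cdh19, Ncam1 and Prnp. They were chosen by name, with earlier results of these data known. All 8 were found among the 55487 genes measured, and all 8 passed the filter on low values that left 16589 genes to test. RNA was sequenced from freshly isolated islets of C57BL/6 mice aged 30 weeks. The control mice were Ggcx flox/flox, with both copies of the gamma-glutamyl carboxylase gene flanked by recombination sites and no Cre. The knockout mice were Ggcx flox/flox; Pdx1-Cre, in which the Pdx1 promoter drives Cre in the pancreatic epithelial lineage. There were 2 libraries per genotype, each from the pooled islets of 2 mice, so n = 2 pools. No library carried Cre with an intact Ggcx gene, and effects of Cre and of Ggcx loss cannot be told apart.

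Control libraries are named by their numbers in the data table, column 2 and column 3, and knockout libraries as replicate 1 and replicate 2. Total reads per library lay between 47624630 and 51756221. Ggcx itself stood at 3971 and 3981 normalized read counts in the controls and at 234.2 and 643.4 in the knockouts. A normalized read count is the number of reads on a gene divided by a size factor for the library, and here 1 read was worth between 0.959 and 1.04 units. Log2 fold changes below compare knockout with control after adding 1 to each value, and are given with their standard error (SE) and the adjusted p-value of limma, and a gene is called changed at an adjusted p under 0.05.

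None of the 8 glia markers was called changed in knockout islets, against 0.621% of all tested genes. The markers fell into 2 sets by abundance. Prnp, Mbp and Ncam1 were carried by 3392 reads or more per library, while Sox10, Cdh19, Ngfr, S100b and Gfap were carried by between 8 and 53. All 5 scarce markers had a higher mean in the knockouts, by 1.23 to 2.15 times, and control column 2 was the lowest library for 4 of them. In limma 2 markers, Cdh19 and Ncam1, had an unadjusted p under 0.05, both higher in the knockouts, where 14.1% of all tested genes passed that mark, 6.74% upward and 7.34% downward. edgeR and DESeq2 on the recovered reads also called 0 of the 8, although DESeq2 gave no adjusted p for the 5 scarce ones. In 6 of 8 markers the libraries of the groups did not overlap (5 higher in knockouts, 1 lower), and the same held for 45.0% of all tested genes, 22.0% of them higher and 23.0% lower in the knockouts.

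**Figure D1:**
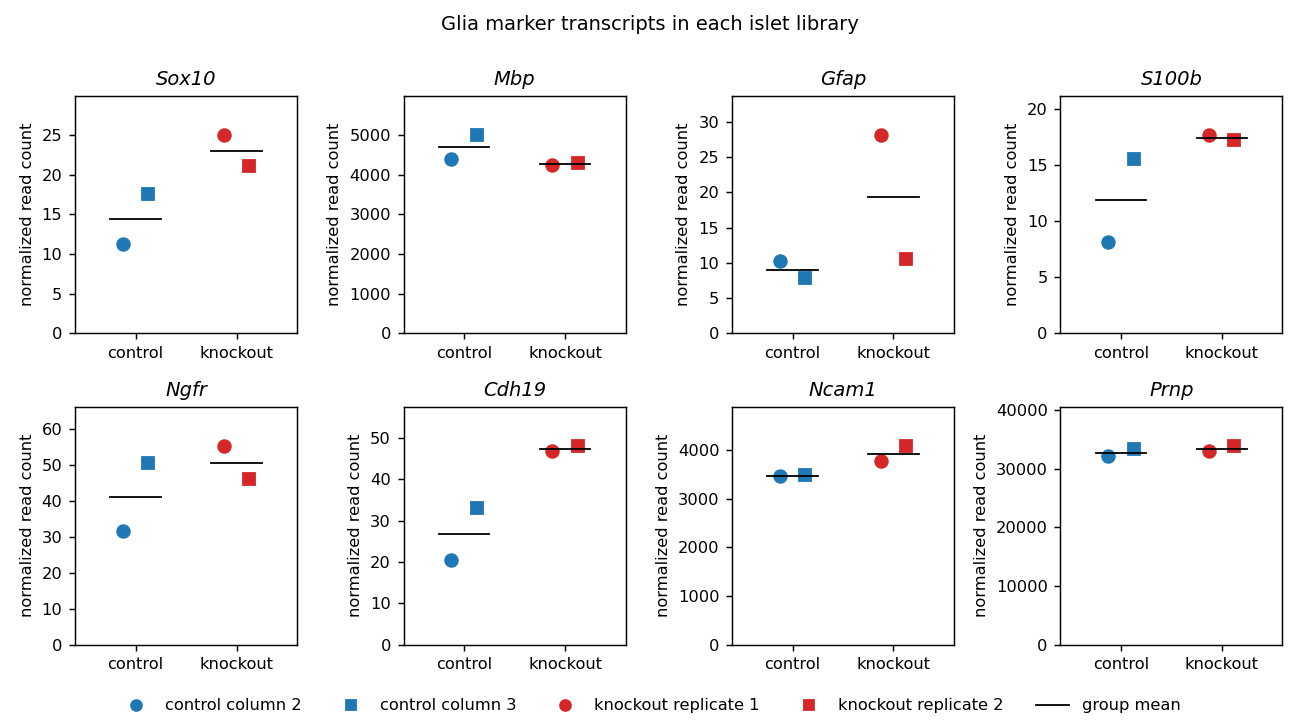
Normalized read count (vertical axes, from 0) of each of the 8 markers in the 2 control libraries (blue) and the 2 knockout libraries (red), with black lines for group means. Sox10, Cdh19, S100b and Ngfr share a low value in control column 2 (blue circles), Gfap stands high in knockout replicate 1 alone (28.1), and Mbp is the marker with both knockout libraries below both controls.

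Levels were compared between genes as normalized reads per kilobase of exon, since a longer transcript gathers more reads. Prnp stood far above the rest at 14130 per kilobase (range of the 4 libraries 13722 to 14435), higher than 99.6% of tested genes with a known length. Mbp followed at 529.5 per kilobase (502 to 590.1) and Ncam1 at 428 per kilobase (400.0 to 471), 1.24 times lower, with ranges that did not overlap. Below Ncam1 the level dropped 32.1-fold to Ngfr, at 13.3 per kilobase (9.19 to 16.01). Then came S100b (9.89), Cdh19 (8.66), Sox10 (6.13) and Gfap (3.36). Each neighbouring pair from Ngfr downward had overlapping ranges, so neighbours in this lower order did not differ beyond the spread. The Ngfr range did lie above those of Sox10 (3.68 to 8.19) and Gfap (1.85 to 6.66). Gfap exceeded 2.67% of tested genes and Ngfr 14.2%. Taking the longest annotated transcript as the length left the order of the 8 as it was. In bulk tissue fewer cells of a type and less RNA per cell cannot be told apart.

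**Figure D2:**
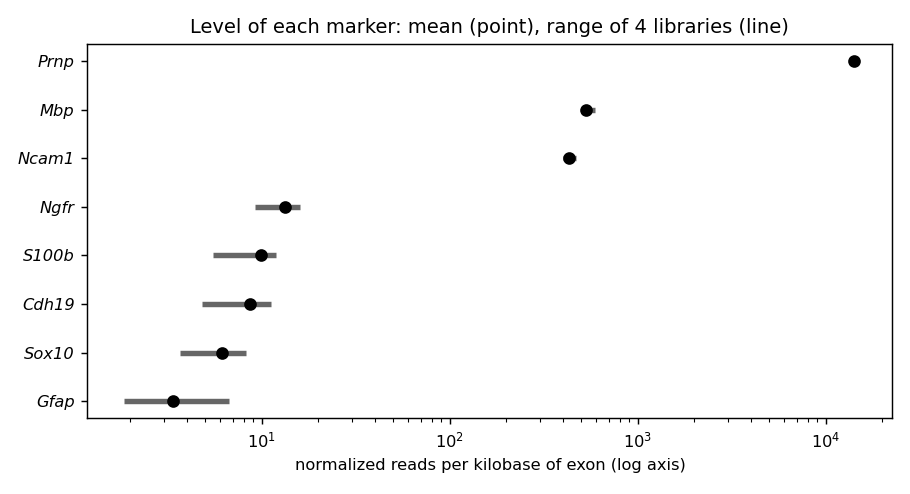
Mean level (points) and range of the 4 libraries (lines) of each marker, in normalized reads per kilobase of exon on a log axis. Prnp, Mbp and Ncam1 lie at 428 or more, and the other 5 markers lie between 3.36 and 13.3 with ranges that overlap from one to the next.

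Promoter sequence from RefSeq (build GRCm38.p6) was available here for 4 of the 8 markers, and that of the most and the least abundant marker is shown. Each window is the 250 bases before the RefSeq start, 5′ to 3′ on the gene's strand. The Gfap window lies inside the gene span of GENCODE M21 (102887336 to 102900912), and the Ngfr window (95587699 to 95587948) overlaps the end of its span at 95587735. The bases after the RefSeq start of S100b were not found in its GENCODE transcripts. Prnp lies at chr2:131909678-131909927 on the plus strand and Gfap at chr11:102897201-102897450 on the minus strand. Capitals mark the GC box GGGCGG or its reverse complement CCGCCC, a binding site of the general factor SP1.
Prnp: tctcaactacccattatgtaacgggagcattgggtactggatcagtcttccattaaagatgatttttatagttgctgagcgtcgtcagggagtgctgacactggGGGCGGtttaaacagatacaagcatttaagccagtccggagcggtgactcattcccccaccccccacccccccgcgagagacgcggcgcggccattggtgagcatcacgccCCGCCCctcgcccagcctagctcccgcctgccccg
Gfap: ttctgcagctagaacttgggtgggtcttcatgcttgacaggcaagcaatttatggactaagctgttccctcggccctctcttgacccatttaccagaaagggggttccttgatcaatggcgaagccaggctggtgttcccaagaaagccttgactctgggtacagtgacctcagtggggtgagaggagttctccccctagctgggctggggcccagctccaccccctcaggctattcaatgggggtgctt
The Prnp window held 17 CG dinucleotides and 2 GC boxes, and the Gfap window held 2 CG dinucleotides and no GC box. The Ngfr window held 16 CG dinucleotides and 4 GC boxes although Ngfr was scarce, and the S100b window 2 and none. The median over 32851 promoters was 6 CG dinucleotides, and 32.7% of them held a GC box on either strand. The SOX core motif ACAAAG, searched on both strands, was in none of the 4 windows and in 16.5% of all promoters. These matches describe the letters of the windows and were not set against any binding data.

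Sox10 encodes the transcription factor that specifies Schwann cells and keeps their identity. It lies on GRCm38 chromosome 15 from 79154908 to 79165240 (minus strand). Its normalized count was 11.2 and 17.5 in control columns 2 and 3, and 24.98 and 21.1 in knockout replicates 1 and 2. Both knockout libraries were above both controls, and control column 2 was the lowest. The means were 14.4 ± 4.45 and 23.0 ± 2.75 (SD, n = 2 each). In log2 units Sox10 differed by 0.67 ± 0.35 (95% interval -0.12 to 1.46, limma adjusted p = 0.447). These values rest on 29 reads in the controls together and 46 in the knockouts. The counting interval of their ratio alone, 0.976 to 2.62 (exact 95%), includes no difference. Such intervals cover counting error only.

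Mbp encodes myelin basic protein, which compacts the myelin sheath. Its gene (chromosome 18, 82475146 to 82585637, plus strand) also makes golli transcripts from an upstream start in cells that form no myelin. GENCODE M21 lists 16 Mbp transcripts, and a count over the whole gene does not separate them. Mbp stood at 4406 and 4998 in the controls and at 4247 and 4287 in the knockouts. Both knockout libraries were below both controls, but control column 2 was closer to the knockouts than to the other control. Mbp had a log2 fold change of -0.14 ± 0.06 (95% interval -0.28 to 0.01, limma adjusted p = 0.384). It was -0.05 without control column 3 and -0.23 without control column 2, where the adjusted p was 0.0720.

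Gfap encodes the filament protein of non-myelinating Schwann cells and astrocytes. Gfap (chromosome 11, 102887336 to 102900912, minus strand) stood at 10.2 and 7.79 in the controls and at 28.1 and 10.5 in the knockouts. Knockout replicate 1 stood apart from the other 3 libraries, and knockout replicate 2 was within 1 read of control column 2 (11 and 10 reads). The log2 fold change of 0.88 ± 0.49 (95% interval -0.22 to 1.99, limma adjusted p = 0.476) became 0.22 without knockout replicate 1 and 1.55 without knockout replicate 2. The exact counting interval of the Gfap ratio, 1.18 to 3.93, lies above 1, while the knockout libraries differed from each other by more than the group means did.

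S100b, a calcium-binding protein used as a general stain for Schwann cells, lies on chromosome 10 (76253853 to 76261159, plus strand). It stood at 8.17 and 15.6 in the controls and at 17.7 and 17.3 in the knockouts. Control column 3 was close to both knockouts, and control column 2 was the lowest library, at 8 reads. Its exact 95% counting interval, 3.53 to 16.1 normalized counts, overlapped that of control column 3, 8.91 to 25.3. S100b had a log2 fold change of 0.58 ± 0.40 (95% interval -0.32 to 1.49, limma adjusted p = 0.582), and 0.16 without control column 2. The exact counting interval of the ratio, 0.844 to 2.56, includes no difference.

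Ngfr encodes the low-affinity neurotrophin receptor, a marker of immature and non-myelinating Schwann cells. Ngfr (chromosome 11, 95568818 to 95587735, minus strand) stood at 31.7 and 50.7 in the controls and at 55.2 and 46.0 in the knockouts. The groups overlapped, with control column 3 above knockout replicate 2. The log2 fold change was 0.32 ± 0.28 (95% interval -0.30 to 0.95, limma adjusted p = 0.666), and -0.0075 without control column 2.

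Cdh19, a cadherin expressed by Schwann cells and their precursors, had the clearest separation among the scarce markers. Cdh19 (chromosome 1, 110888326 to 110977584, minus strand) stood at 20.4 and 33.1 in the controls and at 46.8 and 47.9 in the knockouts. Both knockout libraries were above both controls, and the controls differed from each other more than the knockouts did. The means were 26.8 ± 8.97 and 47.4 ± 0.784 (SD, n = 2 each). In log2 units Cdh19 differed by 0.84 ± 0.29 (95% interval 0.18 to 1.49) with a limma unadjusted p of 0.0178 and an adjusted p of 0.233. The exact counting interval of the ratio was 1.25 to 2.51. The log2 fold change was 0.50 without control column 2 and 1.17 without control column 3. Cdh19 was called in none of the alternatives that gave it an adjusted p.

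Ncam1, the neural cell adhesion molecule, is found on Schwann cells, neurons and islet endocrine cells alike. Ncam1 (chromosome 9, 49502136 to 49798925, minus strand) stood at 3466 and 3497 in the controls and at 3779 and 4082 in the knockouts. Both knockout libraries were above both controls, by a small margin: the means differed by 12.9%. The log2 fold change was 0.17 ± 0.05 (95% interval 0.05 to 0.30), with a limma unadjusted p of 0.0116 and an adjusted p of 0.193 (0.152 to 0.718 over the alternatives). In the authors' deposited table, which gives control over knockout, Ncam1 had a log2 fold change of -0.18 with an adjusted p of 0.337. Exons of Ncam1 share 417 bases with an antisense gene. Whether reads were counted by strand is not stated in the labels, so reads of the pair may be mixed.

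Prnp encodes the prion protein, a cell-surface glycoprotein of neurons, glia and many other cells that supports myelin upkeep in peripheral nerve. Prnp (chromosome 2, 131909928 to 131938429, plus strand) stood at 32150 and 33391 in the controls and at 33068 and 33821 in the knockouts, and the groups overlapped. The log2 fold change was 0.03 ± 0.05, with a 95% interval from -0.08 to 0.14, so the interval holds changes from 0.944-fold to 1.10-fold (limma adjusted p = 0.849). Exons of Prnp share 145 bases with those of Prn, an annotated gene on the same strand. Prnp made up between 79.5% and 80.2% of the summed normalized count of all 8 markers, so that sum (40103.5 and 42011 in controls, 41267 and 42333 in knockouts) mostly reports Prnp.

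The 5 scarce markers were then summed, a grouping made after their values were seen and given without a test. The sum was 81.7 in control column 2, 124.7 in control column 3, 172.8 in knockout replicate 1 and 142.9 in knockout replicate 2. The ratio of the group means was 1.53, and both knockout libraries were above both controls. Over all 8 markers, control column 2 was the lowest library for 6, against 24.9% of all tested genes. Leaving out control column 2 lowered the log2 fold change of Sox10 to 0.37, of S100b to 0.16, of Cdh19 to 0.50 and of Ngfr to -0.0075, while that of Gfap was 1.06.

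**Figure D3:**
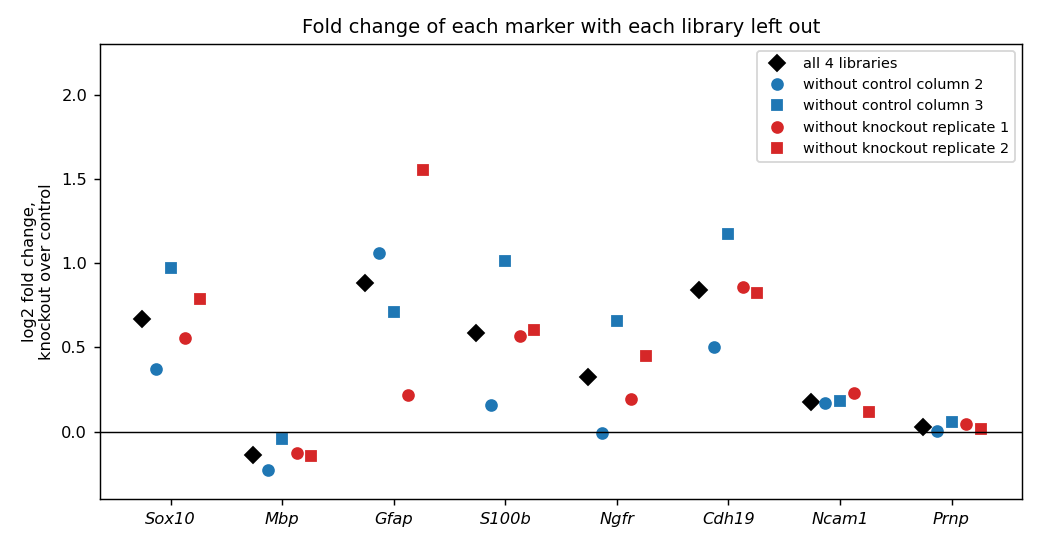
Log2 fold change of each marker, knockout over control, with all 4 libraries (black diamonds) and with each library left out in turn. Without control column 2 (blue circles) the values of Sox10, S100b, Ngfr and Cdh19 lie nearer 0, Gfap depends on knockout replicate 1 (0.22 without it), and Ncam1 and Prnp move little.

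Companion genes were taken from 8 lists that do not include the 8 markers. They hold myelin genes, other Schwann cell genes, axon and Schwann cell signals and neurotrophin genes. They also hold relatives of Ncam1 and Prnp, S100 genes, nerve genes, and genes of other glia and melanocytes. In all, 75 of 102 companion genes passed the filter, and limma called 0 of them changed. At a limma unadjusted p under 0.05, 20 were higher and 2 lower. Of the 20, the myelin list held 3 and the neural crest, immature and non-myelinating Schwann list 5. The 20 are 26.7% of the 75, where 6.74% of all tested genes were higher and 7.34% lower at that mark. The lists were chosen with earlier results of these data known, so this share is a description and no test. edgeR called 0 and DESeq2 called 2. Across all tested genes the median log2 fold change was 0.00 and 50.1% were above 0. The companion genes Foxd3, Kcna1 and Ntf3 passed the filter through the knockout libraries alone, and Ntf3 is among the 20 higher. Counts, shares and medians that include these 3 genes describe the tested genes only.

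Among myelin genes 10 of 16 were tested, with 8 above 0, 2 below 0, none called and a median log2 fold change of 0.22. At a limma unadjusted p under 0.05, 3 were higher (6.74% of all tested genes were). Pmp22, a tetraspan protein of compact myelin, stood at 393 and 436 in controls and at 502 and 572 in knockouts (0.37 ± 0.10, limma adjusted p = 0.138). Cnp, an enzyme of myelin-forming glia, was at 0.05 ± 0.10 on the log2 scale. Egr2, the factor that switches on myelin genes, was at -0.10 ± 0.07, and its 941 and 919.6 counts in controls were above the 866 and 873 in knockouts. Mag, Gjb1, Dhh, Drp2 and Gldn were under the filter, and Cldn19 was at 0 in all 4 libraries.

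Among neural crest, immature and non-myelinating Schwann markers 13 of 15 were tested, with 12 above 0 and none called. Foxd3 and Kcna1, among the 12, passed the filter through the knockout libraries alone. At a limma unadjusted p under 0.05, 5 were higher (6.74% of all tested genes were). The median was 0.33 (0.19 without control column 2). Matn2, a matrix protein, stood at 899 and 806 in controls and at 1103 and 986 in knockouts (0.29 ± 0.08, limma adjusted p = 0.159). The adhesion molecule L1cam was at 0.35 ± 0.13, the artemin receptor Gfra3 at 0.33 ± 0.14 and Cadm4, an adhesion molecule between Schwann cell and axon, at -0.02 ± 0.10. Scn7a and Gpm6b were picked after their values were seen. Scn7a, a sodium channel gene of Schwann cells, stood at 86.8 and 82.8 in controls and at 176.9 and 127.5 in knockouts (0.82 ± 0.19, limma adjusted p = 0.0904), and passed without knockout replicate 2 (adjusted p = 0.0242). The membrane protein gene Gpm6b stood at 26.6 and 36.0 in controls and at 70.8 and 49.9 in knockouts (0.92 ± 0.27, limma adjusted p = 0.164).

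**Figure D4:**
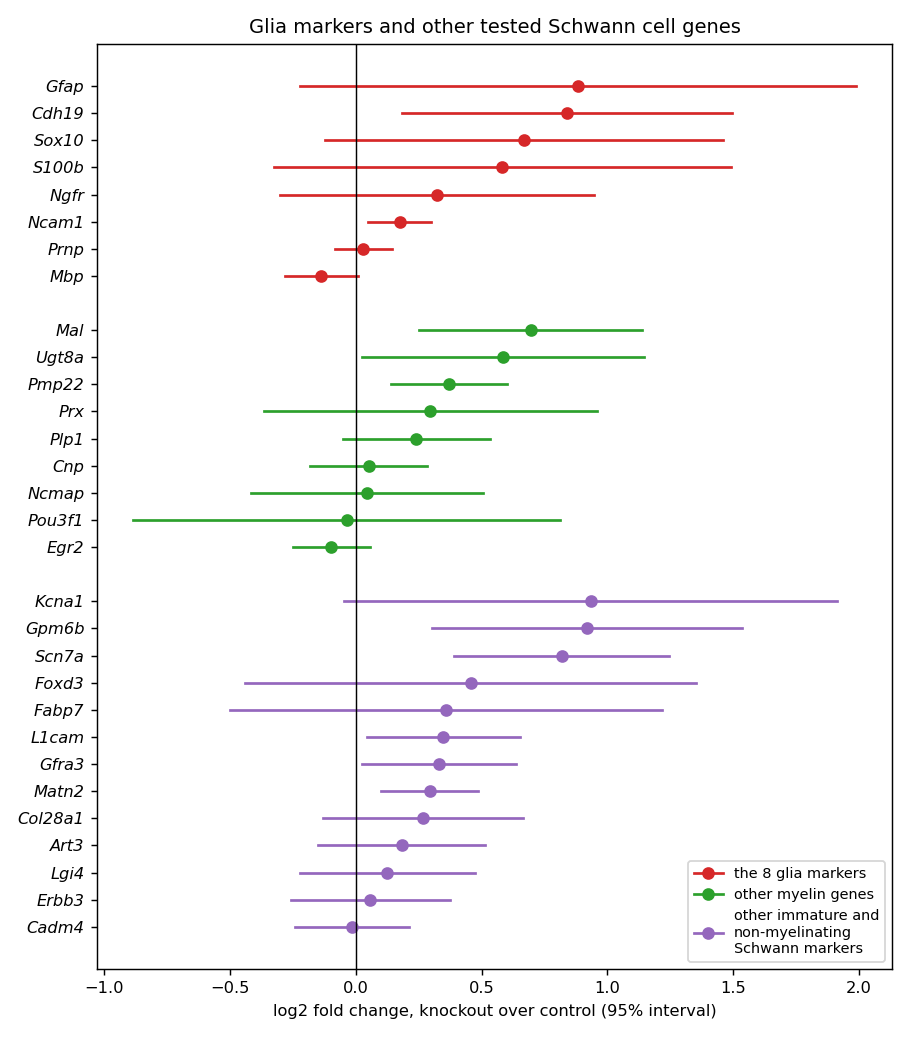
Log2 fold change, knockout over control, with its 95% interval for the 8 glia markers (red), 9 of 10 myelin genes (green) and 13 immature or non-myelinating Schwann markers (purple) that passed the filter. Most points lie right of 0 and many intervals cross it. None of these genes was called after adjustment over all tested genes.

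Ligands and receptors by which axons and Schwann cells signal differed in both directions, and none was called. Of the neuregulin and GDNF family list 7 of 8 were tested, 6 were above 0, and the median was 0.05. At a limma unadjusted p under 0.05, 1 was higher (Gfra1), where 6.74% of all tested genes were. Erbb2, below 0 and picked after its values were seen, stood at 22.5 and 22.4 in controls and at 12.5 and 15.3 in knockouts (-0.66 ± 0.32, limma adjusted p = 0.411). Gfra1, the GDNF co-receptor, stood at 977 and 1015 in controls and at 1282 and 1247 in knockouts (0.34 ± 0.06, limma adjusted p = 0.0560), and passed with a common upper quartile (adjusted p = 0.0495) and in DESeq2 (0.0408). Ret, the signalling receptor of that family, was at 0.00 ± 0.12, Nrtn at 0.05 ± 0.08 and Artn at 0.00 ± 0.18. In the neurotrophin list, the ligands and receptors of the Ngfr pathway, 12 of 13 were tested, 7 were above 0, and the median was 0.04. At an unadjusted p under 0.05 in limma, Sorcs2 (0.24 ± 0.07) and Ntf3 (1.07 ± 0.40) were higher and Traf6 (-0.24 ± 0.05) was lower, all picked after their values were seen. Of all tested genes 6.74% were higher and 7.34% lower at that mark, and Ntf3 passed the filter through the knockout libraries alone. Ntrk2, the receptor of brain-derived neurotrophic factor, was at -0.06 ± 0.05, Sort1, a co-receptor of Ngfr, at -0.03 ± 0.05, Maged1, which binds Ngfr inside the cell, at 0.06 ± 0.06 and Bex3 at 0.02 ± 0.05.

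Relatives and partners of Ncam1 and Prnp were 8 genes, of which 7 were tested, with a median of 0.18 and none called. All 7 were above 0 (50.1% of all tested genes were). At a limma unadjusted p under 0.05, 3 were higher (6.74% of all tested genes were). Fgfr1, a receptor that NCAM engages, was at 0.13 ± 0.07, the kinase Fyn at 0.18 ± 0.09, Ncam2 at 0.10 ± 0.11 and Gap43, a growth cone protein, at 0.02 ± 0.18. St8sia2 and St8sia4, which add polysialic acid to NCAM, were picked after their values were seen. St8sia2 stood at 41.9 and 40.9 in controls and at 66.6 and 62.3 in knockouts (0.63 ± 0.21, limma adjusted p = 0.216). St8sia4 stood at 143 and 138 in controls and at 199.8 and 182 in knockouts (0.44 ± 0.13, limma adjusted p = 0.177). Prnd, the neighbour of Prnp in the genome, was at 0 in all 4 libraries.

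Nerve fibre and neuron genes were examined because Schwann cells accompany axons and the small ganglia of the pancreas. Of 16 genes 14 were tested, and 12 were above 0 (50.1% of all tested genes were). The median log2 fold change was 0.35, but -0.06 without control column 2. In limma 3 were higher and 1 lower at an unadjusted p under 0.05 (6.74% and 7.34% of all tested genes were). Control column 2 was the lowest library for 11 of the 14, against 24.9% of all tested genes. Vip, Prph and Nefl were picked after their values were seen. Vip, a neuropeptide of pancreatic ganglion neurons, stood at 142 in control column 2 and at 648, 793 and 493 in control column 3 and knockout replicates 1 and 2. The neuronal filament gene Prph stood at 57.2 against 192, 149.9 and 134, and Nefl at 23.5 against 82.8, 79.1 and 63.3 in the same order. In these 3 genes control column 2 was far below the other 3 libraries. Without it the log2 fold change was -0.05 ± 0.22 for Vip, -0.22 ± 0.24 for Nefl and -0.43 ± 0.17 for Prph, where both knockouts lay below control column 3. The more abundant Tubb3, Elavl4, Th and Nefm, which endocrine cells can also express, were at -0.19 ± 0.05, 0.03 ± 0.07, 0.46 ± 0.13 and 0.25 ± 0.06, none called. The part of these low nerve gene counts in the glia marker values was not tested.

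**Figure D5:**
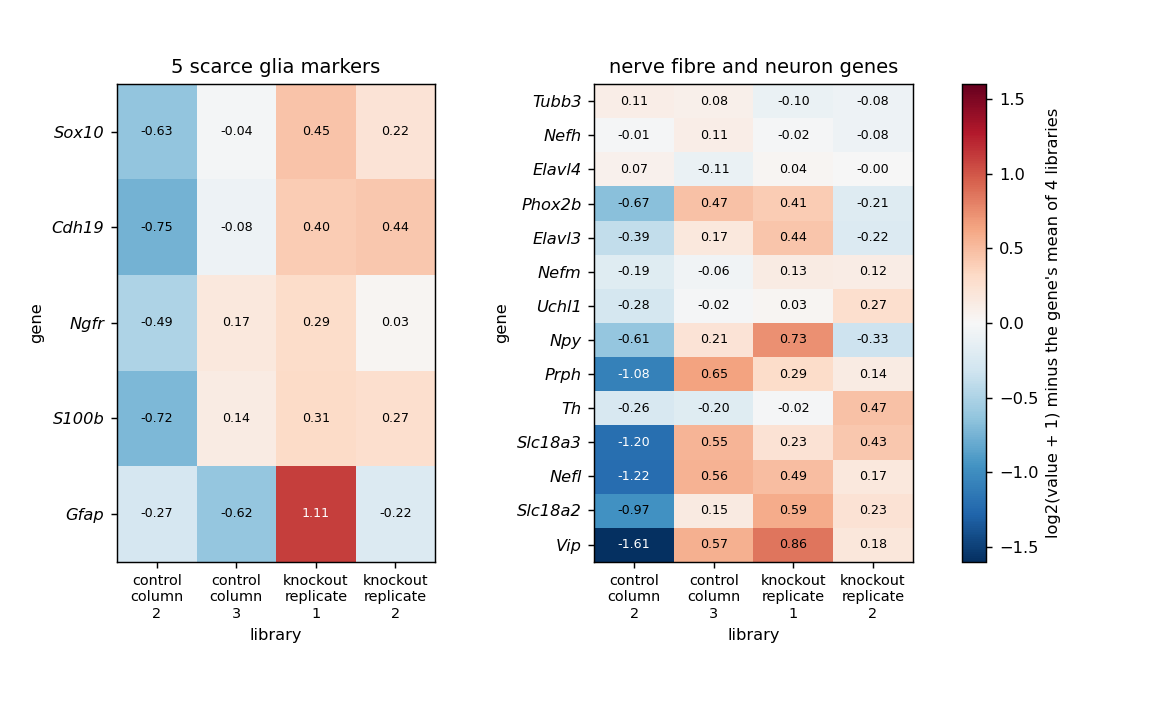
Deviation of each library from the gene's mean over the 4 libraries, in log2(value + 1), for the 5 scarce glia markers (left) and the 14 tested nerve fibre and neuron genes (right), blue for lower and red for higher. The column of control column 2 is below the mean for all 5 scarce markers, and it is the lowest library for 11 of the 14 nerve genes.

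A profile of 4 of the 8 markers, Mbp, Sox10, Cdh19 and Ngfr, was compared with 42 tested companion genes of the myelin, Schwann, signal and neurotrophin lists. The mean of their centred log2 values was -0.48 and 0.05 in control columns 2 and 3, and 0.27 and 0.16 in knockout replicates 1 and 2. The nearest were L1cam, Gfra3, Bdnf and Ugt8a, at root-mean-square distances of 0.10, 0.11, 0.13 and 0.14 log2 units over the 4 libraries. Mbp runs against the other 3 between the groups, so the profile stands for their mean and not for each marker, and a low value in control column 2 is built into the choice of the nearest genes.

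Markers of other cells were summed in each library. Stellate cell, pericyte and fibroblast markers also belong to the tissue around nerves. Their summed counts were 12645.5 and 10786 in controls and 13604 and 13012 in knockouts, a ratio of 1.14. Rgs5, a pericyte gene picked after its values were seen, made up 72.6% to 82.1% of these sums. Without it the sums were 2569 and 1931 in controls and 3731 and 2895 in knockouts, a ratio of 1.47. Of the 11 genes 9 were above 0 and 7 were higher at a limma unadjusted p under 0.05. The median was 0.62 and Dcn was called higher. Of all tested genes 50.1% were above 0, 6.74% were higher at that mark and 0.247% were called higher. Acinar markers had sums of 15676 and 17507 in controls and 7658 and 13066 in knockouts. All 12 tested acinar genes were below 0 and lower at that mark, with a median of -0.74, and Try4 was called lower. Of all tested genes 7.34% were lower at that mark and 0.374% were called lower. Medians were 0.06 for 8 endothelial, 0.01 for 8 macrophage, 0.16 for 6 tested duct and 0.07 for 10 endocrine genes. The part of these lists in the glia values was not tested. Of the markers of other cells that use Mbp, Gfap or Sox10, the oligodendrocyte genes Mog, Opalin and Olig2 and the melanocyte gene Tyr were at 0 in all 4 libraries, and Mobp and Olig1 were at or under 1.95. Dct, a melanocyte gene, stood at 259.5 and 227 in controls and at 296 and 352 in knockouts (0.41 ± 0.13, limma adjusted p = 0.189), and Aqp4, an astrocyte water channel gene, at 0.14 ± 0.12. Pmel, another melanocyte gene, stood at 17.4 and 17.5 in controls and at 14.6 and 14.4 in knockouts (limma log2 fold change -0.25 ± 0.33), and the astrocyte gene Aldh1l1 was under the filter.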

How the data were processed

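Islet RNA of 4 libraries was read from 1 deposited table. The authors deposited, per the file headers, a normalized signal for every gene in every library, which is the read count over a size factor. The authors' deposited log2 fold change, p-value and test score stand in the same table, and of these only Ncam1 is quoted. The submitters' processing notes name DESeq2 1.22.2, STAR 2.5.1b, CASAVA 1.4 and featureCounts 1.6.0, with build GRCm38, and give no roles. Reads were recovered by rescaling each library, and 100% of values came out whole (tolerance 0.01 of a read). Knockout libraries were identified from their column names. The control columns carry the numbers 2 and 3, which differ from the labels, so only their group is known. Columns of no sample numbered 0. The labels list each library as its own sample. Replicates differed beyond sampling noise, with a chi-square per degree of freedom of 10.1 (control) and 9.85 (knockout).

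Genes reaching 10 in 2 or more libraries were tested two-sided with limma 3.58.1 (R 4.3.3) after log2(value + 1), using a mean-variance trend and Benjamini-Hochberg adjustment over the 16589 genes. Each gene had 2 residual degrees of freedom and 6.85 borrowed ones. With 2 libraries per group an exact permutation p cannot be smaller than 0.333, and none is given. The alternatives were edgeR 4.0.16 and DESeq2 1.42.0 on recovered reads, other pseudocounts, filters and scalings, a fit without the trend, and each library left out. The code was tested on simulated data. Positions and exon lengths come from GENCODE M21 (GRCm38), which holds 99.5% of the identifiers.

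The 8 markers and all gene lists were chosen with earlier results of these data known. In each companion list the genes called, then the most abundant up to 4 in all, were named. Sums, counts, medians and genes called were given for the stellate and acinar lists. Only medians and numbers of genes were given for the endothelial, macrophage, duct and endocrine lists. A lymphocyte list, with 1 of 7 genes tested, is not described. The 4 genes nearest the marker profile were named by root-mean-square distance. Exceptions are marked as picked after their values were seen. A further gene of the myelin list is not reported here by name.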

Additional observations from a re-analysis of the deposited data

How the results depend on the processing

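Each of the 8 markers stayed uncalled in each of the 13 alternatives that gave it an adjusted p, and 99 of 100 fold changes kept their direction. The exception was Ngfr, at -0.0075 without control column 2. Genes called numbered 41 higher and 62 lower, but 1 and 1 with no filter, 19 and 32 with a filter at 50, 0 and 0 without the mean-variance trend and 114 and 205 in DESeq2. With 1 library left out they ranged from 58 to 207 higher and from 49 to 241 lower (207 and 241 with control column 2 omitted, 58 and 49 for control column 3, 72 and 98 for the first knockout, 101 and 148 for the second), and the lone library of a genotype was then assumed to vary like the others. Companion genes called numbered 0, but 1 with a common upper quartile, 2 in DESeq2 and 1 to 3 with 1 library left out: Sorcs2 and Traf6 for control column 2, Ugt8a, Vip and Prph for control column 3, S100a1, S100z and Th for the first knockout, and Scn7a for the second. With a common upper quartile the calls split into 57 higher and 55 lower. The median of the neurotrophin list was -0.0046 with a filter at 50. Without control column 2 the medians of the neuregulin and GDNF list and of the nerve list were -0.030 and -0.056. The former was -0.015 without knockout replicate 1, 0.17 without knockout replicate 2 and 0.23 without control column 3, and that of other glia and melanocyte genes was -0.050 without control column 3. The summed count of the 8 markers, knockout over control, was 1.02, and 0.921 without Ncam1 and Prnp, where Mbp dominates, and 1.53 over the 5 scarce markers, a set chosen after seeing the data. No paired analysis was possible because the control columns do not carry the replicate numbers of the labels. Counting error alone spans no difference for Sox10, S100b and Ngfr, while Gfap is limited by the spread of the knockout libraries.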

Other observations

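Among the other S100 genes and the receptor gene Ager, 9 of 15 were tested, and none was called. Of the 9, 5 were above 0 and 4 below (50.1% of all tested genes were above 0). Their median log2 fold change was 0.08. S100a6 and S100z were farthest above 0, both picked after their values were seen. S100a6 stood at 173.7 and 180.2 in controls and at 268.5 and 271 in knockouts, with no overlap (log2 fold change 0.61 ± 0.12, limma adjusted p = 0.0594). S100z stood at 218 and 258 in controls and at 319.5 and 439 in knockouts (0.66 ± 0.16, limma adjusted p = 0.0991), and passed in DESeq2 (adjusted p = 0.0422) and without knockout replicate 1 (0.00890). The abundant S100a11, S100a10 and S100a13 were at -0.03 ± 0.06, -0.13 ± 0.12 and 0.08 ± 0.10. S100a1 stood at 1142 and 1026 in controls and at 1117 and 656 in knockouts, so that knockout replicate 2 alone was low.

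Among genes of nerve fibres and of the neurotrophin pathway, Th and Traf6 differed between settings, and Traf6 was picked after its values were seen. Th, which encodes the enzyme that starts catecholamine synthesis, stood at 1441, 1498 and 1702 in control columns 2 and 3 and knockout replicate 1, and at 2389 in knockout replicate 2. Traf6, a signalling adaptor of Ngfr, stood at 4090 and 4272 in controls and at 3491 and 3611 in knockouts (-0.24 ± 0.05, limma adjusted p = 0.0813), and passed without control column 2 (0.0492).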
